A study of Schmidtea mediterranea with 9 samples.

Results

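Neoblasts of the planarian Schmidtea mediterranea, taken from the pre-pharyngeal region, were compared 48 h after the head was cut off (the anterior wound) and in uninjured animals (the 0 h control). The comparison uses 6 of the 9 libraries of the series, chosen by their titles, with 3 libraries per group. The remaining 3 libraries come from the same region 48 h after removal of the tail and pharynx (the posterior wound). They shared the fit that estimates the spread, and their levels are given beside the others. All animals were of the asexual strain and had been starved, and each group was sorted by Hoechst and propidium iodide staining for viable cells whose DNA content exceeded the diploid amount, the gate known as X1. Poly(A) RNA was sequenced.

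Neoblasts are the dividing cells of adult planarians and the source of all new tissue. After amputation, wounded tissue switches on a set of early genes, and neoblasts divide more and begin to turn on genes of the cell types that will be replaced. At 48 h a head wound lies in the period in which neoblasts gather beneath the wound and the blastema forms. Bulk RNA of a sorted gate holds cycling neoblasts of several lineages together, so a smaller share of 1 lineage and less RNA per cell cannot be told apart. No uninjured animals were sampled at 48 h, so wounding and elapsed time cannot be told apart either.

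Reads were counted on 63423 assembled contigs that fall into 46724 components, the assembler's unit nearest to a gene. A component is described by its longest contig. The deposited files do not pair components with gene names, so marker genes of neoblasts or of other cell types could not be looked up, no transcript is given a function here, and identifiers are printed for 2 components per direction. Mapped reads ranged from 14674800 to 23700877 over the 6 libraries. Of the components, 21322 passed the filter on low counts and were tested, 15110 of them with 1 contig and 6212 with several. Their median length was 754 bases and their median level 2.95 CPM (counts scaled to library size, with libraries aligned by the trimmed mean of M values, TMM). Control replicate 1 stood apart in several measures. Its reads were unmapped in 11.4%, against 4.27% to 5.35% in the other 5 libraries, and the most abundant component took 9.19% of its mapped reads, against 13.7% to 16.9% in the others. Replicates differed by far more than counting noise, with a chi-square per degree of freedom of 11.4 to 13.7 between anterior libraries and 27.9 to 74.2 between control libraries. This value grows with depth and is weighted to the most abundant components, so it does not give the spread of a typical component.

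After head amputation 6 components rose and 0 fell, of 21322 tested (0.0281% and 0%; quasi-likelihood test of edgeR at a Benjamini-Hochberg adjusted p under 0.05). The 6 rises were between 2.65-fold and 4.53-fold. All 6 components had a single contig, as did 70.9% of those tested. Their lengths were 490 to 1885 bases, and none was rare or among the most abundant. Their mean levels lay between the 64.2nd and the 84.5th percentile of the components tested, from 15.6 to 65.6 CPM in anterior libraries and from 3.42 to 22.2 CPM in control libraries. In each of the 6, every anterior library lay above every control library, a separation that 5.28% of all tested components showed in this direction. The 6 were chosen by the same contrast, so their separation is a description and no further test.

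The largest of these rises was that of comp11581_c0, of 1307 bases. It stood at 15.1, 15.5 and 16.3 CPM in anterior libraries, at 18.8, 15.5 and 15.1 CPM in posterior libraries and at 2.28, 3.70 and 4.27 CPM in control libraries. The anterior libraries differed among themselves by about 1 CPM, and the nearest control library lay more than 10 CPM below them. On the log2 scale it was higher by 2.18 with an SE of 0.23 (edgeR adjusted p = 0.0147). These levels came from 299, 289 and 294 reads in anterior libraries and 35, 86 and 99 reads in control libraries. The second, comp17960_c0 of 803 bases, stood at 19.1, 21.3 and 18.6 CPM in anterior libraries, at 12.8, 13.1 and 11.1 CPM in posterior libraries and at 4.57, 4.64 and 4.18 CPM in control libraries. Here the 3 groups formed 3 separate levels, with the posterior libraries between the other two. Against the controls the anterior wound gave 2.14 ± 0.17 (log2 ± SE, edgeR adjusted p = 0.0014) and the posterior wound 1.47 ± 0.16 (edgeR adjusted p = 0.0105).

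A component of 640 bases stood at 32.6, 34.0 and 29.1 CPM in anterior libraries, at 48.4, 61.2 and 64.7 CPM in posterior libraries and at 5.42, 7.22 and 11.9 CPM in control libraries. It was highest after the posterior wound, with 1.95 ± 0.25 (log2 ± SE, edgeR adjusted p = 0.0423) for the anterior wound and 2.82 ± 0.26 (edgeR adjusted p = 0.00721) for the posterior wound. The shortest of the 6, of 490 bases, was also the most abundant, at 61.4, 77.6 and 57.7 CPM in anterior libraries, at 59.3, 62.9 and 60.5 CPM in posterior libraries and at 14.8, 25.4 and 26.5 CPM in control libraries. The levels after the 2 wounds overlapped, while all controls lay below them. The changes were 1.56 ± 0.21 (log2 ± SE, edgeR adjusted p = 0.0442) for the anterior wound and 1.45 ± 0.21 (edgeR adjusted p = 0.0618) for the posterior wound.

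A component of 1885 bases stood at 21.2, 25.3 and 21.2 CPM in anterior libraries, at 14.9, 18.3 and 13.2 CPM in posterior libraries and at 8.09, 8.73 and 8.53 CPM in control libraries. The anterior wound gave 1.41 ± 0.17 (log2 ± SE, edgeR adjusted p = 0.0372) and the posterior wound 0.87 ± 0.17 (edgeR adjusted p = 0.267). The last, of 1566 bases, stood at 16.1, 23.0 and 18.8 CPM in anterior libraries, at 9.35, 9.99 and 9.52 CPM in posterior libraries and at 7.05, 7.18 and 7.58 CPM in control libraries. Its anterior libraries spread more than those of the 1885-base component, and its control libraries lay within 1 CPM of each other. This 1566-base component also changed by 1.41 ± 0.18 (log2 ± SE, edgeR adjusted p = 0.0372) after the anterior wound, against 0.40 ± 0.17 (edgeR adjusted p = 0.78) for the posterior wound. The difference between the wounds, anterior minus posterior, was 1.00 ± 0.17 on the log2 scale (edgeR unadjusted p = 0.00013, adjusted p = 0.904). It did not pass the adjusted test for this component, nor for any other of the 6. Both wounds are set against the same 3 control libraries.

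**Figure D1:**
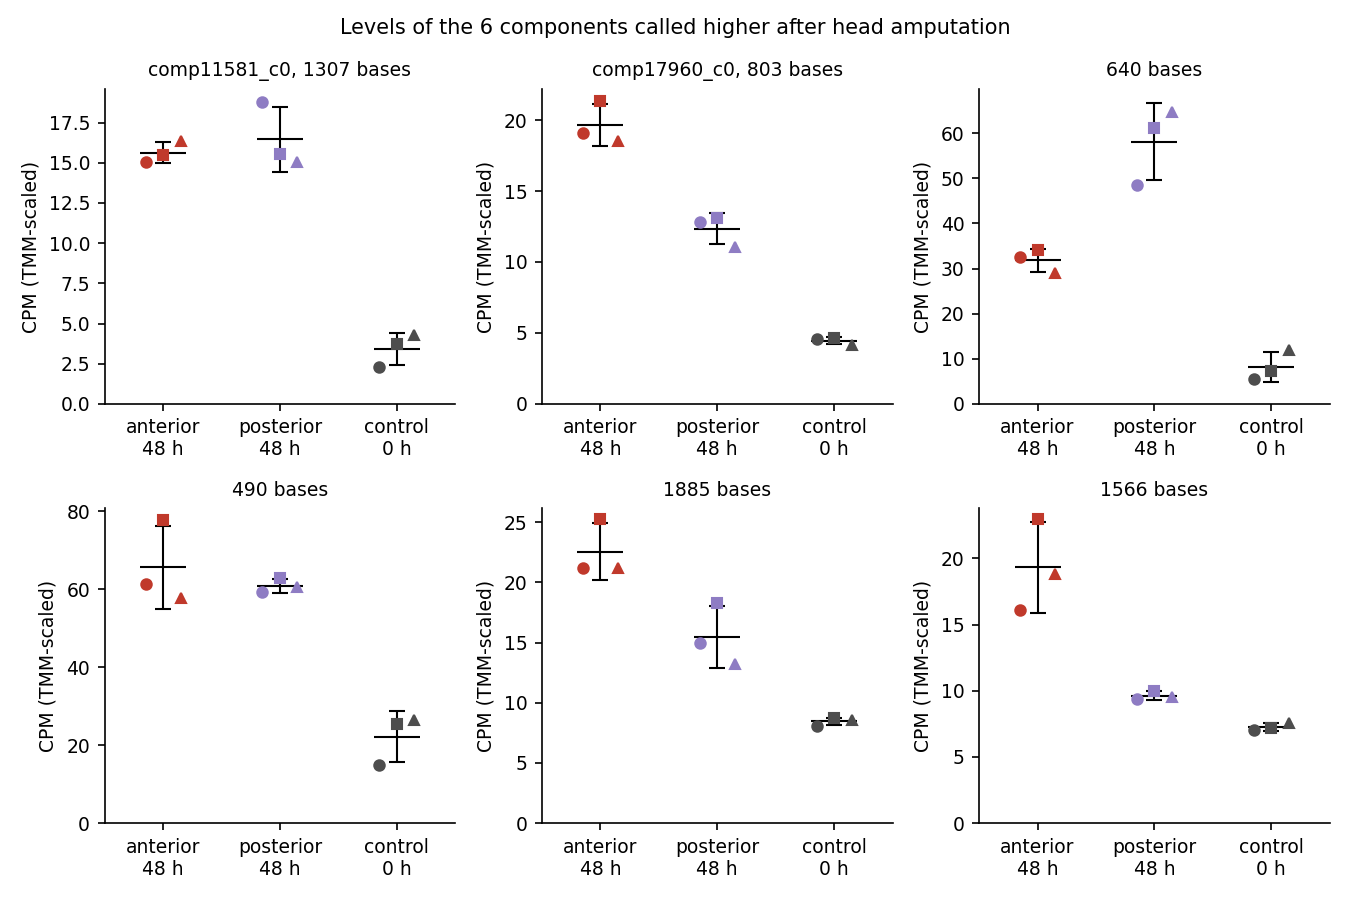
Level in CPM scaled by TMM (y axis, from 0) of the 6 components that rose after head amputation, by group (x axis: anterior 48 h, posterior 48 h, control 0 h). Circles, squares and triangles are replicates 1, 2 and 3, and bars give the mean and SD of 3 libraries. In each panel all anterior libraries lie above all control libraries; the posterior libraries lie between them for comp17960_c0 and for the components of 1885 and 1566 bases, and above the anterior libraries for that of 640 bases.

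Per 1000 bases of contig, the mean level of the 6 in anterior libraries ranged from 12.0 CPM for the components of 1307 and 1885 bases to 133.8 CPM for that of 490 bases, against 2.61 and 4.48 CPM and 45.3 CPM for the same components in control libraries. Together the 6 took 165.4, 196.8 and 161.6 CPM in anterior libraries, 163.7, 181.0 and 174.1 CPM in posterior libraries, and 42.2, 56.8 and 63.0 CPM in control libraries. They were chosen for their difference, so these sums describe them and test nothing. The coefficient of variation of the 6 ran from 4.10% to 17.9% among anterior libraries and from 3.84% to 41.1% among control libraries. The component nearest to a call that did not pass, of 396 bases, stood at 312.4, 233.5 and 216.6 CPM in anterior libraries, at 350.8, 403.4 and 369.1 CPM in posterior libraries and at 93.1, 131.1 and 87.2 CPM in control libraries (1.29 ± 0.18, log2 ± SE, edgeR adjusted p = 0.0686).

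The number of calls moved with single libraries. Leaving out anterior replicate 1, 2 or 3, or control replicate 2, left 1 component that rose. Leaving out posterior replicate 1 gave 2, leaving out posterior replicate 2 or 3 or control replicate 1 gave 3, and leaving out control replicate 3 gave 4. Of the 17 alternatives run for each component, comp17960_c0 passed in all 17 (adjusted p at most 0.0213), comp11581_c0 was lost in 5, those of 490 and 1885 bases in 8 each, that of 640 bases in 9 and that of 1566 bases in 11, with a log2 fold change above 1 throughout. With a replicate block, the component of 1566 bases no longer passed (edgeR adjusted p = 0.0642). DESeq2 called 14 that rose and 11 that fell (0.0657% and 0.0516% of those tested), and limma-voom 6 and 0. Of the components tested, 4995 got no adjusted p from DESeq2, so its adjustment ran over fewer components than that of edgeR.

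The further 8 rises of DESeq2 included components that were as even between replicates as the 6. One of 1641 bases stood at 194.6, 194.1 and 191.4 CPM in anterior libraries, 227.1, 244.3 and 232.9 CPM in posterior libraries and 131.0, 133.1 and 127.1 CPM in control libraries, with a log2 fold change of 0.57 in both tools and an edgeR adjusted p of 0.192. Another, of 813 bases, stood at 29.2, 31.8 and 28.7 CPM in anterior libraries, 28.7, 27.9 and 30.6 CPM in posterior libraries and 17.1, 17.0 and 18.2 CPM in control libraries, with an edgeR adjusted p of 0.192. In neither did wounded and control libraries overlap. The 11 components lower by DESeq2 were rarer, with a median level of 1.61 CPM, against 14.4 CPM for its 14 rises, and their edgeR adjusted p was 0.522 or above. Their longest contigs ranged from 242 to 5094 bases.

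No component fell by edgeR, whose test gave 568 components that were lower and 251 that were higher at an unadjusted p under 0.05. The 2 largest differences downward that met the conditions for naming did not pass the adjusted test, and both were low in all anterior libraries and high in control replicate 1. The component comp3219_c0, of 423 bases, stood at 0.302, 0.107 and 0.111 CPM in anterior libraries, at 1.38, 2.87 and 1.85 CPM in posterior libraries and at 4.50, 0.989 and 1.47 CPM in control libraries, from 6, 2 and 2 reads in anterior libraries and 69, 23 and 34 reads in control libraries. The fitted log2 difference was -3.64 with an SE of 0.70 (adjusted p = 0.522 by edgeR and 0.000616 by DESeq2). The value was -2.76 without control replicate 1. Its sign could hardly change there, since the component was chosen for groups that did not overlap. The component comp1056_c0, of 294 bases, stood at 1.41, 0.322 and 0.167 CPM in anterior libraries, at 2.32, 16.9 and 8.25 CPM in posterior libraries and at 15.7, 2.75 and 2.07 CPM in control libraries. The fitted log2 difference was -3.38 with an SE of 1.02 (edgeR adjusted p = 0.964), or -1.89 without control replicate 1. In neither component were the posterior libraries as low as the anterior ones; against the controls their log2 fold changes were -0.15 (SE 0.54) and 0.44 (SE 0.85).

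Differences at an unadjusted p under 0.05 were of unlike size and abundance in the 2 directions. The 251 higher components (1.18% of those tested) had a median difference of 0.57 on the log2 scale, sign left out, and a median level of 20.04 CPM. The 568 lower components (2.66%) had a median size of 0.97 on the same scale and a median level of 2.59 CPM. Among the higher ones 44.2% differed by less than 0.5 on the log2 scale and 5 by 2 or more, whereas among the lower ones 12.1% differed by less than 0.5 and 47 by 2 or more. Size went with abundance in both directions. Higher components under 0.5 had a median level of 100.2 CPM and those from 1 to 2 had 0.64 CPM, against 30.6 and 0.91 CPM for lower ones. Rare components need a larger difference to reach this p, so size and abundance are not 2 separate contrasts between the sets. Together these are 819 components, or 3.84%, and 5% of the components tested would be 1066.1.

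**Figure D2:**
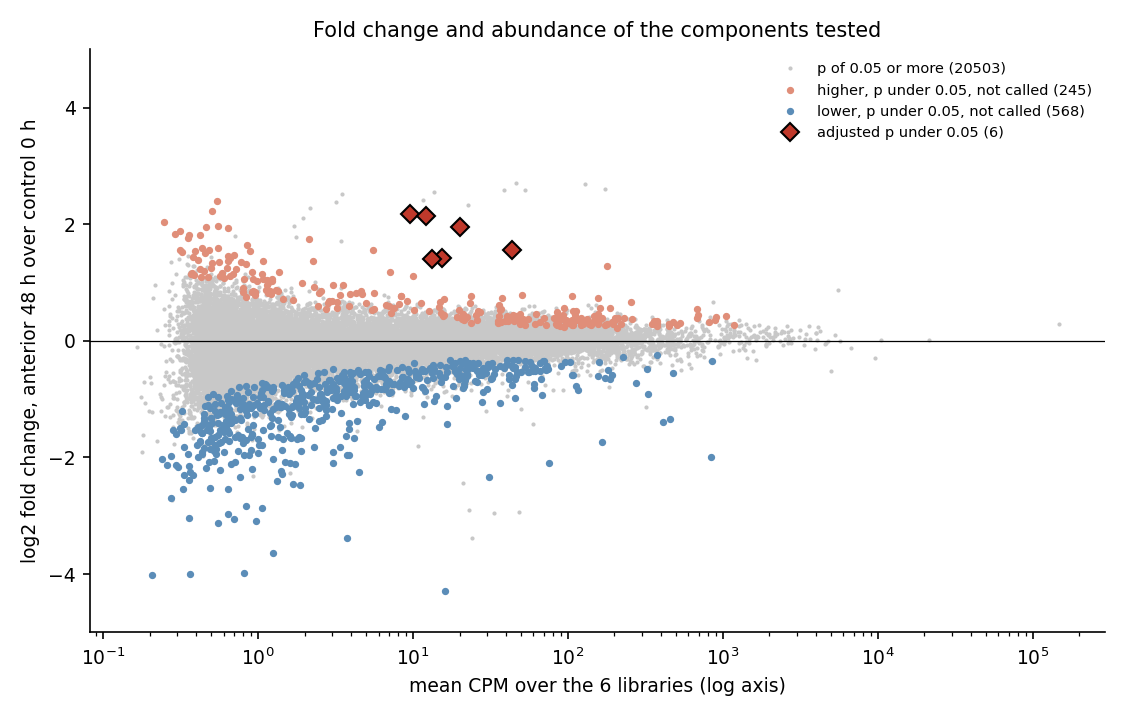
Log2 fold change of the anterior wound over the 0 h control (y axis) against the mean CPM of the 6 libraries (x axis, log scale) for each of the 21322 components tested. Grey points had an unadjusted p of 0.05 or more, orange and blue points were higher and lower at p under 0.05 without passing the adjusted test, and diamonds mark the 6 that passed, all between log2 1.41 and 2.18 and at mean levels between 9.52 and 43.9 CPM.

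By abundance, the balance turned round at the top of the range. At 64 CPM or more, 83 of 2344 components were higher and 35 lower at p under 0.05. The 83 were small differences in transcripts of ordinary length: log2 0.23 to 1.29 with a median of 0.34, at a median length of 1395 bases. In 80 of them the groups did not overlap, against 233 of all 251 higher components. Both sets were chosen by p in the same contrast, so their separation is a description. Over all components of this class, 15.6% had every anterior library above every control library and 3.41% the reverse, against 5.28% and 5.64% of all those tested. Between 1 and 4 CPM, 35 of 5186 were higher and 173 lower, and below 1 CPM 57 of 6338 were higher and 163 lower. Without control replicate 1 the counts were 53 higher and 11 lower at 64 CPM or more, 29 and 44 from 16 to 64 CPM, against 45 and 92 with all libraries, and 35 and 100 from 1 to 4 CPM. The median log2 fold change was -0.13 below 1 CPM, -0.11 from 1 to 4, -0.026 from 4 to 16, 0.044 from 16 to 64 and 0.043 at 64 CPM or more. These medians were small and moved with single libraries. Below 1 CPM the median was -0.23 without anterior replicate 3. From 4 to 16 CPM it was -0.052 without control replicate 1 and 0.019 without control replicate 3, so its sign was not stable. From 16 to 64 CPM it was 0.015 without control replicate 1 and 0.072 without control replicate 3. At 64 CPM or more it was 0.027 without anterior replicate 2, 0.065 without anterior replicate 3 and 0.0089 with upper quartile scaling. Relative to the mean of the 6 libraries, the median log2 level of that class was 0.022, 0.070 and -0.0060 in anterior libraries. In control libraries it was 0.023, -0.024 and -0.060, so the groups overlapped. The precision differs between these classes: fitted log2 fold changes had a median SE of 0.52 below 1 CPM and of 0.14 at 64 CPM or more.

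By contig length, with all libraries, the share of lower components was largest at the long end. It was 5.58% at 4000 bases or more and 4.37% from 2000 to 4000, against 2.66% of all tested. From 1000 to 2000 bases it was 3.09%, from 500 to 1000 bases 1.74% and below 500 bases 2.34%. Precision differed between the lengths, so these shares are not on an equal footing. The median SE was 0.48 below 500 bases, 0.34 from 500 to 1000, 0.20 from 1000 to 2000, 0.17 from 2000 to 4000 and 0.20 at 4000 or more. Without control replicate 1 the share in the longest class did not stand out, with 6 of 505 lower against 328 of 22450 over all components. Of 502 components of 4000 bases or more, 28 were lower and 0 higher at p under 0.05, and the median log2 fold change of the class was -0.16. Of 2448 components between 2000 and 4000 bases, 107 were lower and 17 higher, with a median of -0.062. Between 1000 and 2000 bases 164 were lower and 96 higher, and from 500 to 1000 bases 108 were lower and 67 higher, with medians of 0.0025 and 0.0032. Below 500 bases 161 were lower and 71 higher, with a median of -0.081. Without control replicate 1 the class from 2000 to 4000 bases had 52 lower and 18 higher components and a median of -0.013, that from 1000 to 2000 bases had 92 lower and 64 higher, and that from 500 to 1000 bases had 70 lower and 50 higher. Without control replicate 3 the median from 2000 to 4000 bases was -0.097. The medians from 500 to 1000 and from 1000 to 2000 bases changed sign between libraries left out, ranging from -0.024 to 0.044 and from -0.0069 to 0.025, and that below 500 bases was -0.17 without anterior replicate 3. Within each of the 5 abundance classes the components of 4000 bases or more had the lowest median of the 5 lengths, from -0.55 below 1 CPM (16 components) to -0.092 at 64 CPM or more (205 components). Without control replicate 1 the median of the longest class was -0.45 below 1 CPM, where components of 2000 to 4000 bases were lower at -0.51. In each of the other abundance classes it was still the lowest of the 5 lengths. It was then -0.27 from 1 to 4 CPM, -0.15 from 4 to 16, -0.047 from 16 to 64 and 0.0027 at 64 CPM or more.

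**Figure D3:**
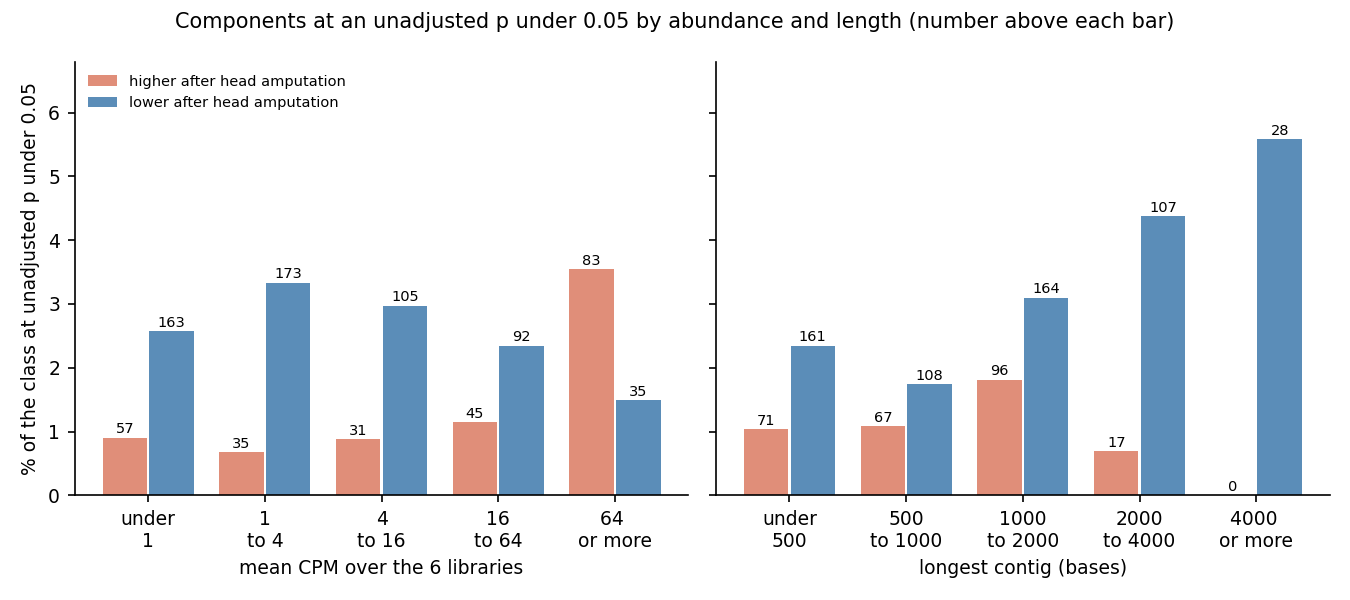
Share of the components of each class (y axis, %) that were higher (left bar of each pair) or lower (right bar) after head amputation at an unadjusted p under 0.05, by mean CPM over the 6 libraries (left panel) and by longest contig in bases (right panel), with the number above each bar. Higher components outnumber lower ones only at 64 CPM or more, 83 to 35; at 4000 bases or more there are 28 lower and 0 higher.

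The length pattern did not separate the groups of libraries. Relative to the mean of the 6 libraries, the median log2 level of components of 4000 bases or more was -0.16, 0.030 and -0.040 in anterior libraries and 0.27, 0.15 and -0.22 in control libraries. Control replicate 3 was thus the lowest of the 6 and control replicate 1 the highest. Components of 2000 bases or more took 24.5%, 25.1% and 25.4% of mapped reads in anterior libraries and 30.3%, 27.3% and 23.6% in control libraries. The means were 25.01% ± 0.469 and 27.1% ± 3.36 (SD, n = 3 each), a difference of -2.05 percentage points (exact permutation test, two-sided, p = 0.4, where 3 against 3 libraries cannot go below 0.1). Without control replicate 1 this difference was -0.426 points, and without control replicate 3 it was -3.78 points. The median log2 fold change of components of 4000 bases or more was -0.042 without control replicate 1 and -0.28 without control replicate 3. Without control replicate 1 the lower components of that class numbered 6 of 505, in place of 28 of 502. Over all components 328 of 22450 were then lower.

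**Figure D4:**
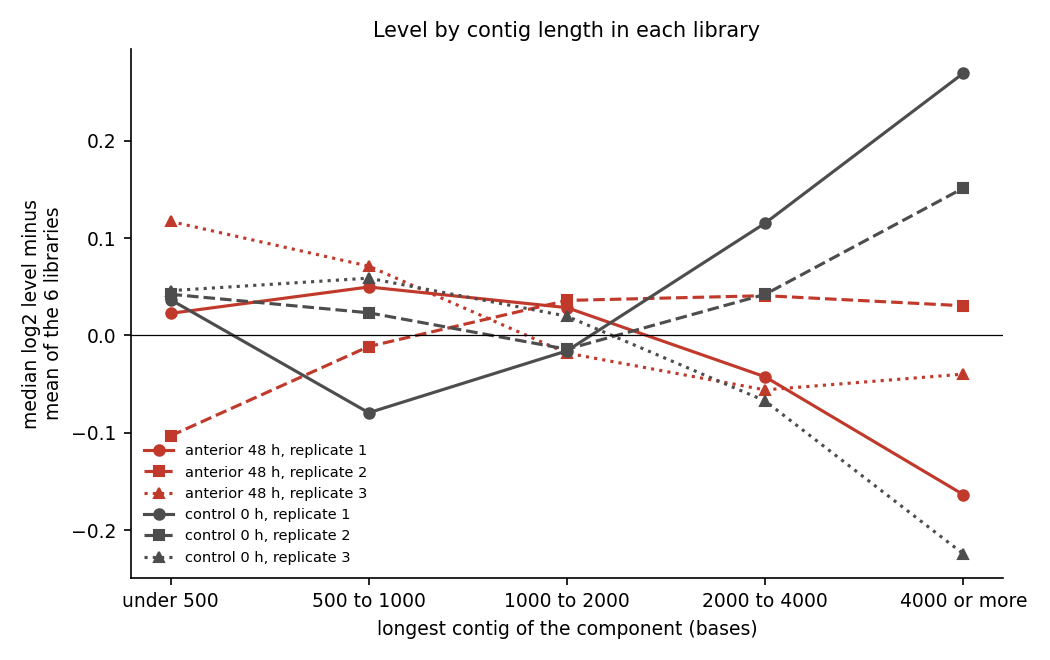
Median log2 level of the components of each length class relative to the mean of the 6 libraries (y axis) against the longest contig in bases (x axis), 1 line per library. The control lines spread from -0.22 to 0.27 at 4000 bases or more and enclose the anterior lines, which lie between -0.16 and 0.030.

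The 28 lower components of 4000 bases or more ran from 4078 to 19189 bases and had log2 fold changes from -1.89 to -0.39. Their summed level was 984.1, 1286.7 and 1229.3 CPM in anterior libraries, 1355.9, 1356.2 and 1120.8 CPM in posterior libraries and 2494.5, 1545.3 and 1298.4 CPM in control libraries. Control replicate 3 lay close to the wounded libraries and control replicate 1 far above them. All 502 components of that length together stood at 43093, 49061 and 55823 CPM in anterior libraries and at 57142, 53728 and 39690 CPM in control libraries, with overlap between the groups.

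Control replicate 1 was the extreme control in most of the differences at p under 0.05. Among the 568 lower components it was the highest control in 415 (73.1%), against 37.4% of all components tested. Among the 251 higher components it was the lowest control in 191 (76.1%), against 39.9% of all. The median log2 level of the 568, relative to the mean of the controls, was -0.70, -0.79 and -0.97 in anterior libraries, -0.46, -0.33 and -0.55 in posterior libraries, and 0.35, -0.15 and -0.21 in control libraries. For the 251 the medians were 0.54, 0.64 and 0.47 in anterior libraries, 0.47, 0.41 and 0.56 in posterior libraries, and -0.22, 0.074 and 0.14 in control libraries. These medians describe components chosen by the same contrast, and the share of unmapped reads in that library is given above; its part in these differences was not tested.

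**Figure D5:**
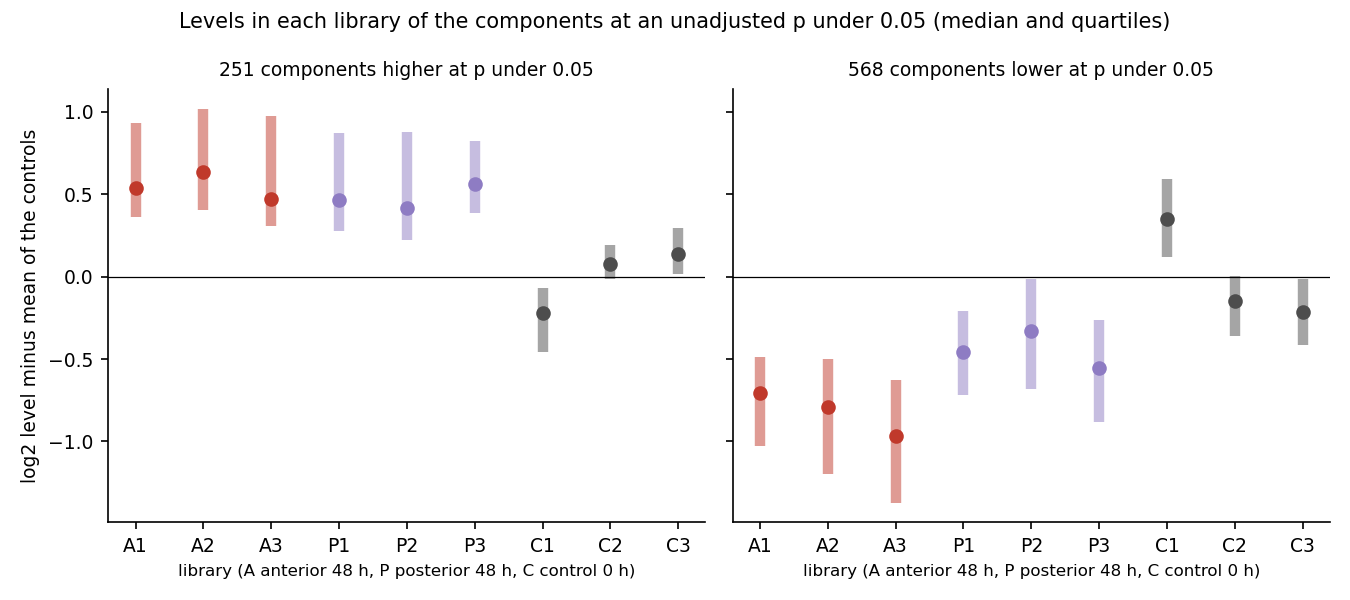
Log2 level relative to the mean of the 3 controls (y axis) in each of the 9 libraries (x axis: A anterior 48 h, P posterior 48 h, C control 0 h) for the 251 higher (left) and 568 lower (right) components at an unadjusted p under 0.05. Points are medians and bars run between the quartiles. Control replicate 1 lies on the far side of the other controls in both panels, at -0.22 and 0.35.

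Without control replicate 1, 201 components were higher and 328 lower, and 121 of the 251 and 231 of the 568 were among them. Leaving out control replicate 3 raised the counts to 1542 higher and 1245 lower. The higher count was 144 and 138 without anterior replicates 1 and 2, and the lower count was 340 without anterior replicate 3. The control group was more variable than the anterior group. The SD of log2 levels had a median of 0.22 among anterior, 0.31 among posterior and 0.37 among control libraries. It was larger among the controls than among the anterior libraries in 71.6% of components.

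Large fitted changes in well-measured transcripts were few and often came from 1 library. At a mean of 4 CPM or more, 18 components were higher and 43 lower by 2-fold or more, where over all abundances 134 (0.628%) were higher and 574 (2.69%) lower. The 18 fell into 2 kinds. In 10 of them, the 6 calls included, no anterior library overlapped a control, and in these 10 the unadjusted p was under 0.05. Over all components tested, 5.28% did not overlap in this direction and 1.18% were higher at p under 0.05, but the 18 were chosen for a large fitted change in the same contrast, so their count is a description. In the other 8 the level in anterior replicate 1 was between 24.2 and 55.1 times the median of the anterior libraries, and p was above 0.05. Summed over these 8 components the level was 2409.4, 22.6 and 78.0 CPM in anterior libraries, 7.42, 87.0 and 16.1 CPM in posterior libraries and 31.5, 369.7 and 6.42 CPM in control libraries. They were high in anterior replicate 1, and second in control replicate 2.

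Downward, 18 of the 43 did not overlap between the groups, against 5.64% of all components tested, and these 43 were likewise chosen by the size of the same contrast. The highest control was replicate 1 in 25 of the 43, replicate 2 in 13 and replicate 3 in 5. Over all components tested these shares were 37.4%, 26.5% and 36.1%. A component of 2077 bases with overlap stood at 409.2, 332.8 and 267.1 CPM in anterior libraries, 182.2, 441.4 and 771.2 CPM in posterior libraries and 3247.8, 443.8 and 309.1 CPM in control libraries, so control replicate 1 alone was high. In another 6, also with overlap, control replicate 2 stood at more than 100 times the median control. Their summed level was 4.89, 103.8 and 1.4998 CPM in anterior libraries, 5.20, 6.68 and 12.5 CPM in posterior libraries and 3.65, 882.0 and 0.819 CPM in control libraries, so that control replicate 2 and then anterior replicate 2 were high. The most abundant of the 18 with no overlap were 2 components of 635 and 380 bases. The first stood at 231.6, 443.8 and 101.2 CPM in anterior libraries, 403.4, 621.4 and 346.7 CPM in posterior libraries and 998.6, 502.7 and 471.3 CPM in control libraries, and the fitted log2 difference was -1.34 ± 0.47 (SE, edgeR adjusted p = 0.964). The anterior libraries spread by more than 4-fold here, and control replicate 1 lay far above the other controls. A component of 556 bases stood at 53.6, 134.4 and 42.7 CPM in anterior libraries, 285.3, 327.4 and 174.1 CPM in posterior libraries and 380.7, 151.4 and 236.2 CPM in control libraries (log2 difference -1.73 ± 0.45, SE, edgeR adjusted p = 0.964). Here the lowest control lay only just above the highest anterior library, and all posterior libraries lay above all anterior ones.

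Components of several contigs gave no call. Of 6212 tested, 53 were higher and 133 lower at p under 0.05, or 0.853% and 2.14%, against 1.31% and 2.88% of the 15110 components of 1 contig. Tested as 31497 separate contigs, 4 rose and 0 fell, and all 4 were the contigs of components already called, those of 1307, 803, 1885 and 1566 bases.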

How the data were processed

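The authors deposited 1 table per library with the raw count of reads and the length in bases for each assembled contig. Per the submitters' processing notes, the tools used were Bowtie2 2.0, SAMtools and DESeq. Which assembly the contig names belong to was not given in the sources used here. Contig counts were summed to components by dropping the contig suffix, 0 columns of per-library values were left out, and tables of the whole series were not used here. The 9 libraries entered 1 fit of 3 groups with edgeR 4.0.16 in R 4.3.3 (quasi-likelihood test, TMM scaling, filterByExpr with a minimum count of 10, Benjamini-Hochberg adjustment over all components tested, call at 0.05), and the contrast was anterior wound minus 0 h control. The SE of a log2 fold change was taken from the test's F statistic. Levels on the log2 scale used a prior count of 2. DESeq2 1.42.0, limma-voom 3.58.1, other scalings and filters, a replicate block, the 6 libraries alone, unsummed contigs and leaving out each library were alternatives. The procedure was tested on simulated data in which all groups had the same spread. The control libraries here were more variable than the anterior ones, so that test does not show how the procedure behaves on them.

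Named components were the 2 largest rises and falls whose higher group averaged 2 CPM or more and whose groups did not overlap, among calls or, with no call, at an unadjusted p under 0.05. The components compared and the lists were chosen with earlier results of these data known; components singled out beyond that rule were chosen after their values were seen. Nothing states that the replicates are separate animals or sorts, so p-values measure only the spread between these libraries. Intervals from counts cover counting error only. Marker lists of planarian cell types could not be matched, since names are not paired with components in the files used here.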

Additional observations from a re-analysis of the deposited data

How the results depend on the processing

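The 6 rises became 14 with DESeq2, 1 with the 6 libraries alone, 1 against a minimum log2 fold change of 1, and between 1 and 4 when 1 library was left out. The 0 falls became 11 with DESeq2 and stayed at 0 when 1 library was left out. The 251 higher and 568 lower components at an unadjusted p under 0.05 numbered 496 and 1103 without a filter and 153 and 302 with a filter at 5 CPM in 3 libraries. Leaving out 1 library gave 138 to 1542 higher and 328 to 1245 lower components. The median log2 fold change of components of 1000 to 2000 bases was -0.026 with upper quartile scaling. With 1 library left out, the median ranged from -0.17 to -0.041 below 500 bases and from -0.23 to -0.090 below 1 CPM. No named component changed direction in any alternative. They were chosen for groups that did not overlap, so a sign could hardly change and this adds no support. The correlation of deviations between anterior and control libraries of the same replicate number ran from -0.24 to 0.15, with 1 of 3 over 0.1. For pairs of different numbers it ran from -0.32 to 0.24. With 3 libraries per group, these values cannot settle whether replicate numbers pair the libraries. With a replicate block, 5 components rose and 0 fell, with 333 higher and 612 lower at an unadjusted p under 0.05. The cause of these shifts was not tested. Depth limits the rarest components most, where a few reads set the level.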

Other observations

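Components read in 1 group alone were all rare. Of 46724 components, 85 had a read in every anterior library and 0 reads in every control library, with at most 9 reads summed over the anterior libraries. In the other direction, 139 had a read in every control library and 0 reads in every anterior library, with at most 20 reads summed over the control libraries. A count of 0 over a whole group allows up to 0.0510 CPM in anterior libraries and 0.0486 CPM in control libraries (3 counts over the group), for counting error only.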
